A study of Mus musculus with 9 samples.

Results

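The 10 genes described here encode the sensors (Nlrp3, Nlrp1b, Nlrc4, Aim2 and Mefv), the adaptor (Pycard), the inflammatory caspases (Casp1 and Casp4) and the pore-forming gasdermins (Gsdmd and Gsdme) of the inflammasome pathway. They were chosen by gene symbol, with 1 entry for each symbol among the 55359 genes of the deposited table. Poly(A) RNA was sequenced from whole lungs collected on day 28 after an instillation into the trachea. The animals were male, of the strain C57BL/6J and aged 6 to 8 weeks. Mice of the Silica + ATL-III group had 5 mg of silica, the crystalline dust behind silicosis, and also the plant lactone atractylenolide III (ATL-III) at 30 mg/kg per day by injection into the peritoneum. Silica mice had the same 5 mg of silica and no compound, and Control mice had saline in the trachea. Each group counted 20 mice and is represented by 3 libraries, 9 in all. The labels do not say whether a library is a single mouse, so p-values describe the spread between libraries, which may be technical. No group had ATL-III without silica, and no injection of saline is named for the other groups.

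An inflammasome is a protein scaffold that assembles in the cytosol when a sensor meets a danger signal. The sensor recruits ASC, the product of Pycard, which gathers and activates caspase-1. Caspase-1 cuts the precursors of interleukin 1 beta and interleukin 18 and frees the pore-forming part of gasdermin D, whose pores release the cytokines and can end in the lytic death called pyroptosis. Silica crystals taken up by lung macrophages are a well known trigger of the NLRP3 inflammasome. Assembly, cleavage and pore formation are events of protein, whereas the values below are of transcripts.

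Levels are given in FPKM, the counts of a gene scaled by its exonic length and by the total of the library, as the authors deposited them. Changes are log2 fold changes ± standard error from edgeR's quasi-likelihood test, fitted to counts. Genes were called where the p, adjusted by Benjamini and Hochberg's method over the 15459 genes tested, was under 0.05. Totals were 16047175 to 17792481 counts per library. Lung epithelium was evident in every library, with the surfactant gene Sftpc at 19802 FPKM or more and the club cell gene Scgb1a1 at 34593 FPKM or more. The summed level of 12 neutrophil markers was 30220.4 to 45696 FPKM in Silica + ATL-III, 1065 to 4825 FPKM in Silica and 599 to 3906 FPKM in Control. All 12 markers were called higher in Silica + ATL-III against either other group. S100a8 and S100a9 together gave most of that sum in every library. The mean log2(FPKM + 0.5) of the 12 neutrophil markers was 8.05 to 8.20 in Silica + ATL-III, 3.86 to 5.37 in Silica and 3.21 to 4.71 in Control. The summed level of 12 macrophage markers was 1553 to 2519.5 FPKM in Silica + ATL-III, 1444 to 2244 FPKM in Silica and 721 to 875 FPKM in Control. A single gene, Chil3, gave most of that sum in every library, with 1177 to 2198 FPKM in Silica + ATL-III, 1053 to 1711 FPKM in Silica and 475 to 628 FPKM in Control. The mean log2(FPKM + 0.5) of the same 12 markers was 5.05 to 5.21 in Silica + ATL-III, below the 5.28 to 5.72 of Silica, and 4.39 to 4.57 in Control. All 5 B cell markers were called lower in Silica + ATL-III against both other groups, with a median log2 fold change of -2.05 against Silica and -2.07 against Control. The 4 tested markers of heart and skeletal muscle were all called lower in both silica groups against Control, with medians of -1.21 in Silica + ATL-III and -1.40 in Silica. The part of these cell types in the results below was not tested. Control was uneven in neutrophil markers, with 3906 FPKM in Control 2 against 634 FPKM in Control 1 and 599 FPKM in Control 3. In whole lung, fewer cells of a type and less RNA per cell cannot be told apart.

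Of the 10 genes, 9 passed the expression filter (3 or more libraries at 1 FPKM or above), and Nlrp1b did not. Outside Silica + ATL-III, Nlrp3 reached 1 FPKM only in Control 2 (2.44) and Silica 2 (1.17), and Gsdme only in Control 2 (1.01). These genes thus passed only through the group where they were high, while Nlrp1b, whose mean was lowest in that group, was left out. The counts and medians of the 9 genes in comparisons with Silica + ATL-III are tilted upward by this. After silica, the DNA sensor Aim2, the adaptor Pycard and the caspases Casp1 and Casp4 rose by 1.82-fold to 2.00-fold over Control. These are 4 of the 9 genes called higher, where 9.11% of all genes tested were called higher and 7.81% lower (16.9% together). With ATL-III on top of silica, the sensors Mefv and Nlrp3 rose 6.23-fold and 3.73-fold over Silica, and Casp4, Gsdme and Gsdmd rose by 1.41-fold to 1.78-fold. These are 5 of the 9 genes called higher, where 11.2% of all genes were called higher and 10% lower (21.2% together). Against Control, Silica + ATL-III lungs had 7 of the 9 genes higher, namely both of these sets without Gsdmd, where 9.14% of all genes were called higher and 6.71% lower (15.9% together). The comparisons share libraries in pairs (Silica stands in both of the first ones), so their values are set side by side and no overlap between them is tested.

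**Figure D1:**
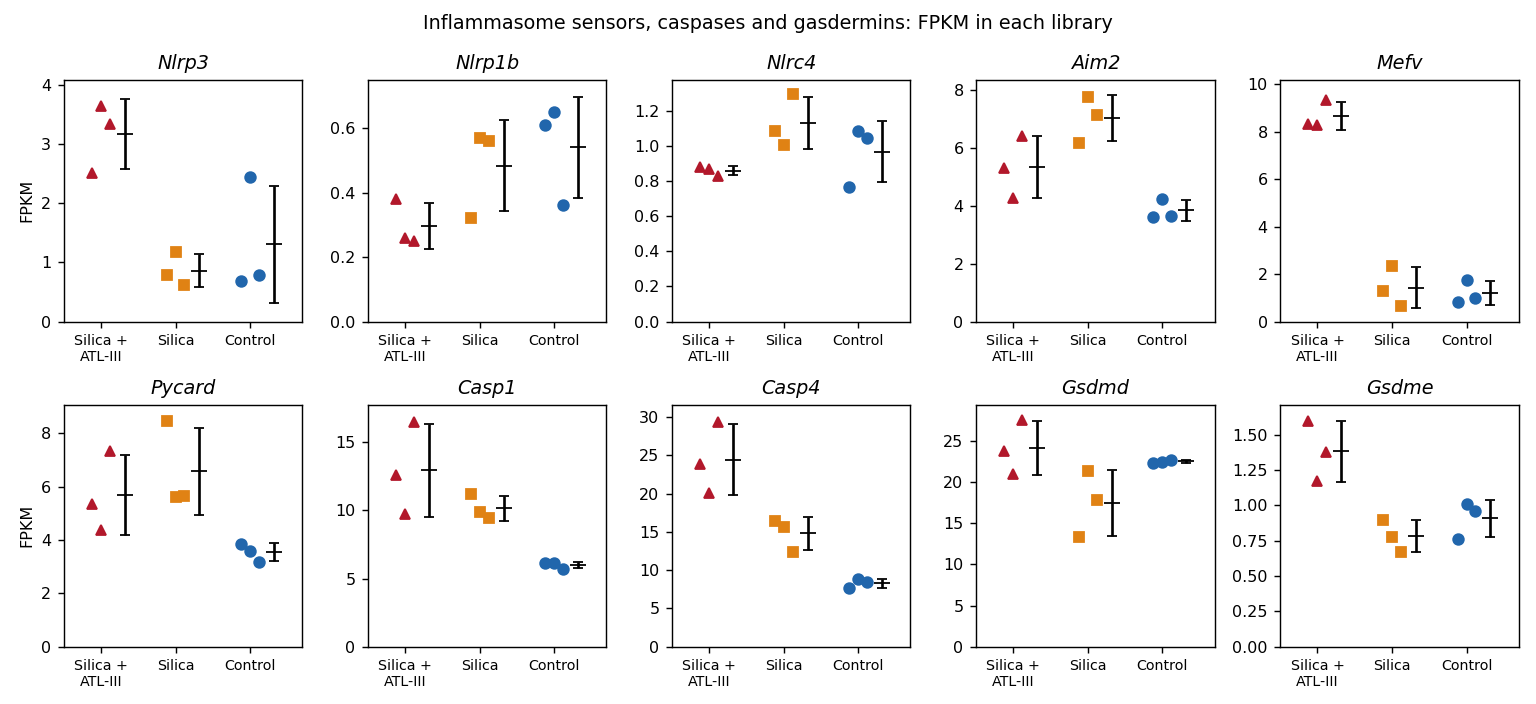
FPKM of each of the 10 genes (vertical axes, each starting at 0) in the 9 libraries, by group. Symbols are single libraries, replicates 1 to 3 from left to right, and the bar beside them is the mean ± SD (n = 3). Mefv stood at 8.29 to 9.35 FPKM in Silica + ATL-III and at 2.34 FPKM or less in the other groups, and Casp1 stood at 9.44 FPKM or more in both silica groups and at 5.71 to 6.15 FPKM in Control.

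Ordered by mean level, Silica + ATL-III lungs had Casp4 at 24.4 ± 4.63 FPKM, Gsdmd at 24.1 ± 3.29 FPKM, Casp1 at 12.96 ± 3.40 FPKM, Mefv at 8.66 ± 0.601 FPKM, Pycard at 5.69 ± 1.505 FPKM, Aim2 at 5.34 ± 1.08 FPKM, Nlrp3 at 3.17 ± 0.589 FPKM, Gsdme at 1.38 ± 0.215 FPKM, Nlrc4 at 0.860 ± 0.0265 FPKM and Nlrp1b at 0.297 ± 0.0723 FPKM (SD, n = 3, as for the other groups). Casp4 overlapped Gsdmd there and Pycard overlapped Aim2, while the libraries of the other neighbours in that order lay apart. In Silica lungs Gsdmd led at 17.5 ± 4.03 FPKM, followed by Casp4 at 14.8 ± 2.13 FPKM, Casp1 at 10.2 ± 0.925 FPKM, Aim2 at 7.03 ± 0.791 FPKM, Pycard at 6.57 ± 1.63 FPKM, Mefv at 1.42 ± 0.859 FPKM, Nlrc4 at 1.13 ± 0.150 FPKM, Nlrp3 at 0.860 ± 0.282 FPKM, Gsdme at 0.783 ± 0.115 FPKM and Nlrp1b at 0.483 ± 0.142 FPKM. Overlapping neighbours in Silica were Gsdmd with Casp4, Aim2 with Pycard, and each step from Mefv down to Gsdme. In Control lungs the order was Gsdmd at 22.5 ± 0.183 FPKM, Casp4 at 8.29 ± 0.571 FPKM, Casp1 at 6.00 ± 0.251 FPKM, Aim2 at 3.84 ± 0.355 FPKM, Pycard at 3.54 ± 0.338 FPKM, Nlrp3 at 1.30 ± 0.986 FPKM, Mefv at 1.19 ± 0.498 FPKM, Nlrc4 at 0.970 ± 0.174 FPKM, Gsdme at 0.910 ± 0.132 FPKM and Nlrp1b at 0.540 ± 0.157 FPKM. Aim2 overlapped Pycard there, and each step from Nlrp3 down to Gsdme overlapped. On the deposited lengths the executioner Gsdmd thus stood first or level with Casp4 in each group. The sensors of bacterial protease and flagellin, Nlrp1b and Nlrc4, stood low. In Silica and in Control the libraries of Nlrp3 and of Mefv overlapped those of Nlrc4. The place of Casp1 depends on its length, which is 3136 exonic bases in the table and 1497 in the mouse annotation GENCODE M21, where the other 9 genes have the table's length. Over the shorter length Casp1 would average 27.1 FPKM in Silica + ATL-III, 21.3 FPKM in Silica and 12.6 FPKM in Control. That mean is above that of Casp4 in each group. It is also above that of Gsdmd in Silica + ATL-III and in Silica, but below it in Control.

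Among the sensors, Nlrp3 (chr11:59541568-59566956, plus strand, GRCm38, GENCODE M21) answers crystals, lysosomal damage and potassium efflux. Its level was 2.51, 3.65 and 3.34 FPKM in the Silica + ATL-III libraries, 0.79, 1.17 and 0.62 FPKM in the Silica libraries, and 0.68, 2.44 and 0.79 FPKM in the Control libraries. The Silica + ATL-III libraries lay above every other library, and Control 2, the Control library with the most neutrophil marker RNA, came closest to them. Nlrp3 rose in Silica + ATL-III over Silica by 1.90 ± 0.42 (adjusted p = 0.0081 by edgeR) and over Control by 1.41 ± 0.40 (adjusted p = 0.035). Silica differed from Control by -0.49 ± 0.43 (adjusted p = 0.44), a sign that turned without Control 2 (0.32, adjusted p = 0.49). The Nlrp3 call against Control was lost without Control 1 (adjusted p = 0.11), Control 3 (0.13), Silica + ATL-III 2 (0.097) or Silica + ATL-III 3 (0.068), and without Control 2 the rise was 2.22 (adjusted p = 0.00050).

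Mefv (chr16:3707218-3718097, minus strand, GRCm38) encodes pyrin, a sensor of bacterial toxin activity that is made in neutrophils and monocytes. It was read at 8.33, 8.29 and 9.35 FPKM in Silica + ATL-III, 1.27, 2.34 and 0.64 FPKM in Silica, and 0.84, 1.76 and 0.97 FPKM in Control. Each Silica + ATL-III library was more than 3 times as high as any other library, and replicate 2 was again the highest within Silica and within Control. Mefv rose by 2.64 ± 0.36 over Silica (adjusted p = 0.00058) and by 2.98 ± 0.37 over Control (adjusted p = 0.00026), while Silica differed from Control by 0.34 ± 0.38 (adjusted p = 0.56). Both rises were called in all 6 fits that left out 1 library and in the 9 other settings.

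The promoters of these sensors, which had the 2 largest rises in Silica + ATL-III over Silica, run from 250 bases before to 50 bases after the most upstream start that RefSeq lists (GRCm38.p6). Nlrp3 lies at chr11:59541319-59541618 on the plus strand and Mefv at chr16:3718075-3718374 on the minus strand. Neither window held a match to the 5 motifs named with the promoters of Aim2 and Pycard, so both are in lower case throughout.
Nlrp3: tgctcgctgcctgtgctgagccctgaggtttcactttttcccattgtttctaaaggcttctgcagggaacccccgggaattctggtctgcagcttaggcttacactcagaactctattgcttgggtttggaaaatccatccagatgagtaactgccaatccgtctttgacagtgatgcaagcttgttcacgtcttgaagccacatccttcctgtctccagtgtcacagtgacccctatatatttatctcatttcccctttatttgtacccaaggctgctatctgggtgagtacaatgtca
Mefv: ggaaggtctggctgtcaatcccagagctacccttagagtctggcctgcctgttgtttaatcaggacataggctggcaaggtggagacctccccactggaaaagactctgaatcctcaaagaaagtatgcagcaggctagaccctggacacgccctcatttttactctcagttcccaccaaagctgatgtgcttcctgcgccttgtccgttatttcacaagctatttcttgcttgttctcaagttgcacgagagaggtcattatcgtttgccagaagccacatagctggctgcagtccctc

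Both sensors and the neutrophil markers were highest in Silica + ATL-III. Silica 2 and Control 2 had the most neutrophil marker RNA of their groups, with 4825 and 3906 FPKM, and also the highest Nlrp3 and Mefv levels of their groups. Silica 2, with the larger sum, had less Nlrp3 than Control 2 (1.17 against 2.44 FPKM) and more Mefv (2.34 against 1.76 FPKM). Single neutrophil markers differed between these libraries in both directions. Silica 2 had more S100a8 than Control 2 (1763.7 against 1457.6 FPKM) and less Csf3r (31.1 against 69.0 FPKM). Within Silica + ATL-III, Nlrp3 was highest in library 2, which had the lowest sum (30220.4 FPKM), near that of library 1 (30774.4 FPKM). By the mean log2 level of the neutrophil markers, library 1 was instead the lowest (8.05), and it had the least Nlrp3 (2.51 FPKM). Library 2 (8.195) and library 3 (8.198) were nearly level by that mean. Mefv was highest in Silica + ATL-III library 3, which had the highest sum. Markers of monocytes, which also make pyrin, moved the same way, with sums over 6 genes of 84.6 to 148 FPKM in Silica + ATL-III, 30.6 to 44.4 FPKM in Silica and 23.95 to 28.9 FPKM in Control. No neutrophil or monocyte marker was at 0 in any group. The part of these cells in the Nlrp3 and Mefv results was not tested.

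**Figure D2:**
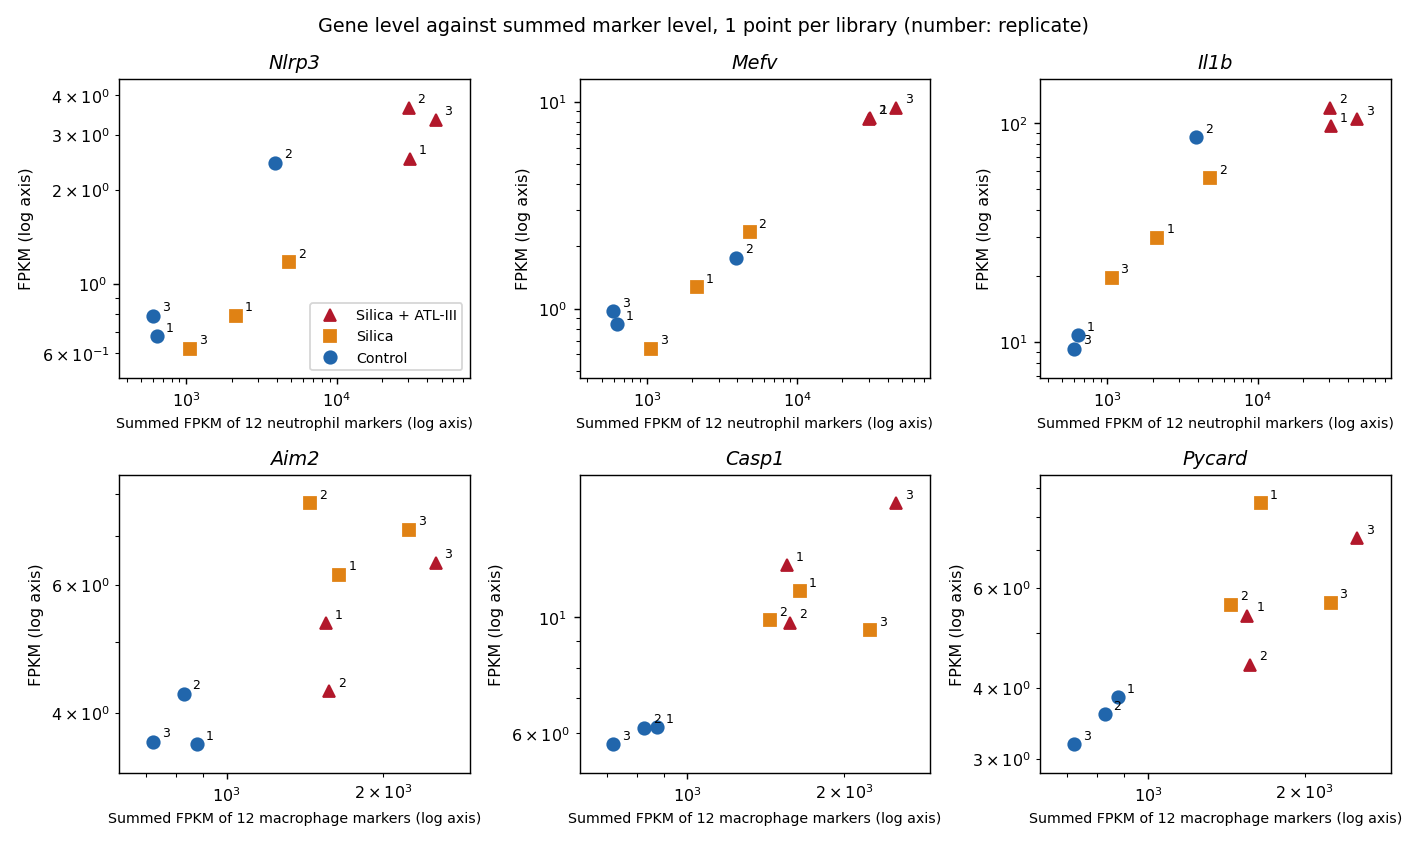
Upper panels: FPKM of Nlrp3, Mefv and the cytokine gene Il1b against the summed FPKM of 12 neutrophil markers, most of it S100a8 and S100a9. Lower panels: FPKM of Aim2, Casp1 and Pycard against the summed FPKM of 12 macrophage markers, most of it Chil3. All axes are log axes, with 1 point per library and its replicate number. In the upper panels the Silica + ATL-III libraries lie to the right, above 30220 FPKM of neutrophil markers, and replicate 2 of Silica and of Control lies to the right of its own group.

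Aim2 (chr1:173350879-173466040, plus strand, GRCm38), which binds double-stranded DNA in the cytosol, was instead highest after silica alone. Its level was 5.31, 4.28 and 6.43 FPKM in Silica + ATL-III, 6.19, 7.76 and 7.14 FPKM in Silica, and 3.62, 4.25 and 3.65 FPKM in Control. Each library of both silica groups lay above each Control library, and the Silica + ATL-III and Silica libraries overlapped. Aim2 rose after silica by 0.97 ± 0.16 (adjusted p = 0.0032), a call kept whichever library was left out. It also rose in Silica + ATL-III over Control by 0.60 ± 0.16 (adjusted p = 0.023), but was not called without Control 1 (0.086), Control 3 (0.088) or Silica + ATL-III 3 (0.066), nor with library totals alone or with limma (0.077 at most). Silica + ATL-III differed from Silica by -0.37 ± 0.15 (adjusted p = 0.10), or by -0.53 (adjusted p = 0.025) without Silica + ATL-III 3.

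Nlrc4 (chr17:74425438-74459142, minus strand, GRCm38) relays the detection of bacterial flagellin and secretion systems by NAIP proteins. It stood at 0.88, 0.87 and 0.83 FPKM in Silica + ATL-III, 1.09, 1.01 and 1.30 FPKM in Silica, and 0.77, 1.09 and 1.05 FPKM in Control. Silica + ATL-III lay below Silica without overlap, but the difference of -0.38 ± 0.20 was not called (adjusted p = 0.20). The other differences were 0.32 ± 0.20 for Silica over Control (adjusted p = 0.27) and -0.05 ± 0.20 for Silica + ATL-III over Control (adjusted p = 0.89).

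Nlrp1b (chr11:71153102-71230733, minus strand, GRCm38), the sensor that anthrax lethal factor cleaves in susceptible strains, was the lowest of the 10 genes in each group, on 26 to 66 counts per library. Its libraries read 0.38, 0.26 and 0.25 FPKM in Silica + ATL-III, 0.32, 0.57 and 0.56 FPKM in Silica, and 0.61, 0.65 and 0.36 FPKM in Control, so that all groups overlapped. With edgeR's own filter, which keeps 18268 genes, Nlrp1b differed by -0.68 ± 0.32 between Silica + ATL-III and Silica (adjusted p = 0.16), by -0.72 ± 0.32 between Silica + ATL-III and Control (adjusted p = 0.15) and by -0.05 ± 0.31 between Silica and Control (adjusted p = 0.93). It has the close relatives Nlrp1a and Nlrp1c-ps, and how the counting split reads that they share is uncertain.

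Pycard (chr7:127989708-127993867, minus strand, GRCm38) makes ASC, the adaptor between most sensors and caspase-1. Its level was 5.35, 4.39 and 7.34 FPKM in Silica + ATL-III, 8.45, 5.60 and 5.65 FPKM in Silica, and 3.85, 3.59 and 3.18 FPKM in Control. Both silica groups lay wholly above Control and overlapped each other. Pycard rose by 1.00 ± 0.22 after silica (adjusted p = 0.014) and by 0.81 ± 0.22 in Silica + ATL-III over Control (adjusted p = 0.029), and Silica + ATL-III differed from Silica by -0.19 ± 0.22 (adjusted p = 0.56). The silica call was lost without Control 3 (adjusted p = 0.059) or Silica 1 (0.054), and the other call without Control 1 (0.058), Control 2 (0.076), Control 3 (0.11) or Silica + ATL-III 3 (0.089). Of its exonic bases 485 are shared with Gm45205 on the opposite strand, and a strand setting of the counting is not stated in the labels.

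Aim2 and Pycard were among the 4 genes called higher after silica. Their promoter windows are printed because both hold the letters GAGGAAGT of PU.1, a master regulator of myeloid cells. The motifs searched on both strands were GAGGAAGT for PU.1, TTGCNNAA for C/EBP factors, TGANTCA for AP-1, the interferon-stimulated response element and the NF-kB site. A window was listed for 9 of the 10 genes, Gsdmd not among them. The PU.1 letters were in 3 of the 9 (Nlrp1b, Aim2 and Pycard), against 3.2% of the 32851 mouse windows of the RefSeq table. The C/EBP letters were in 3 of the 9 (Nlrp1b, Nlrc4 and Pycard), against 10.8% of all windows. Casp1 and Casp4, also called higher after silica, had no match to any motif in their windows. Nlrp1b, which did not pass the expression filter, had 2 matches. A link between these letters and the silica rise was not tested. The letters searched for the interferon-stimulated response element (3.44% of all windows), AP-1 (7.81%) and the NF-kB site (0.411%) were in 0 of the 9. Other spellings of these sites were not searched. Aim2 (chr1:173420354-173420653, plus strand) has the PU.1 letters from position -113 relative to the start. Pycard (chr7:127993818-127994117, minus strand) has them in reverse complement, ACTTCCTC, from position -44, and a C/EBP match, TTCAGCAA, from position -142. Capitals mark these matches, which do not overlap and are runs of letters rather than measured binding sites.
Aim2: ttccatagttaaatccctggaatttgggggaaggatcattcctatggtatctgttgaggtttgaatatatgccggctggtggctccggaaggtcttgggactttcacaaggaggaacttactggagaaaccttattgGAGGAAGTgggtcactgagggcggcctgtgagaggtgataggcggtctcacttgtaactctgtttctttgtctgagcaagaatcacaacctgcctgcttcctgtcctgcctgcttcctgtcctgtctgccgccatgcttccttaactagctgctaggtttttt
Pycard: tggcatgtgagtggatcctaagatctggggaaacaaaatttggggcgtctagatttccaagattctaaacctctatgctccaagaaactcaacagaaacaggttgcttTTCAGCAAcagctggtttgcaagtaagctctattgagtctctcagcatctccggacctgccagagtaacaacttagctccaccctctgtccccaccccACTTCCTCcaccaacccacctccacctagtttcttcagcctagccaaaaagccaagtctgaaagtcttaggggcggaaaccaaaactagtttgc

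Casp1 (chr9:5298517-5307265, plus strand, GRCm38) encodes the protease that matures interleukin 1 beta and interleukin 18. It was read at 12.6, 9.75 and 16.5 FPKM in Silica + ATL-III, 11.2, 9.86 and 9.44 FPKM in Silica, and 6.15, 6.14 and 5.71 FPKM in Control. The libraries of both silica groups lay above all Control libraries and overlapped among themselves. Casp1 rose by 0.86 ± 0.18 after silica (adjusted p = 0.0096) and by 1.23 ± 0.18 in Silica + ATL-III over Control (adjusted p = 0.00066), and both calls were kept whichever library was left out. Silica + ATL-III differed from Silica by 0.37 ± 0.17 (adjusted p = 0.15), or by 0.54 (adjusted p = 0.039) without Silica + ATL-III 2.

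Casp4 (chr9:5308828-5336783, plus strand, GRCm38) is the mouse gene of caspase-11, the cytosolic receptor and protease for bacterial lipopolysaccharide in the non-canonical inflammasome. It begins beyond the end of Casp1, with 1562 bases between them. Casp4 stood at 23.9, 20.1 and 29.3 FPKM in Silica + ATL-III, 16.4, 15.6 and 12.4 FPKM in Silica, and 7.66, 8.77 and 8.45 FPKM in Control. No group overlapped another, with Silica between Silica + ATL-III above and Control below. Casp4 rose by 0.94 ± 0.16 after silica (adjusted p = 0.0037), by 0.74 ± 0.15 in Silica + ATL-III over Silica (adjusted p = 0.0058) and by 1.68 ± 0.16 in Silica + ATL-III over Control (adjusted p = 4.2e-05). Of the 9 genes tested, it alone was called in all 3 comparisons, and each call was kept in all 6 fits without 1 library and in the 9 other settings.

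Markers of macrophages, the cells that take up silica, also stood above Control in both silica groups, with 8 of 12 called higher and 1 lower in Silica + ATL-III, and 9 of 12 called higher in Silica. Against Silica, 4 of the 12 were called lower in Silica + ATL-III and the others were not called. Aim2, Pycard, Casp1 and Casp4 shared the first pattern. The library with the most Casp1 and Casp4, Silica + ATL-III 3, had the highest macrophage marker sum (2519.5 FPKM, of which 2198 FPKM was Chil3) but, by mean log2(FPKM + 0.5), stood at 5.13, below Silica + ATL-III 1 (5.21) and every Silica library (5.28 or more). The part of macrophage abundance in these results was not tested.

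Gsdmd (chr15:75862327-75867408, plus strand, GRCm38) encodes the pore former that caspase-1 and caspase-11 cut. Its level was 23.8, 21.0 and 27.6 FPKM in Silica + ATL-III, 13.3, 21.3 and 17.8 FPKM in Silica, and 22.4, 22.5 and 22.7 FPKM in Control. The Silica libraries were the most spread, all lay below Control, and Silica 2 lay above the lowest Silica + ATL-III library. Gsdmd rose in Silica + ATL-III over Silica by 0.49 ± 0.15 (adjusted p = 0.033). This call was lost without Silica 1 (adjusted p = 0.096), Silica 3 (0.083), Silica + ATL-III 1 (0.067) or Silica + ATL-III 3 (0.090), with library totals alone (0.053), with limma on log2(FPKM + 0.5) (0.069) and with only the 6 libraries compared (0.074). Silica differed from Control by -0.27 ± 0.15 (adjusted p = 0.21) and Silica + ATL-III from Control by 0.22 ± 0.15 (adjusted p = 0.35).

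Gsdme (chr6:50188888-50263862, minus strand, GRCm38) encodes another pore-forming gasdermin. It was read at 1.60, 1.17 and 1.38 FPKM in Silica + ATL-III, 0.90, 0.78 and 0.67 FPKM in Silica, and 0.76, 1.01 and 0.96 FPKM in Control. The Silica + ATL-III libraries lay above all others. Gsdme rose by 0.83 ± 0.18 over Silica (adjusted p = 0.0066) and by 0.72 ± 0.17 over Control (adjusted p = 0.016), while Silica differed from Control by -0.12 ± 0.18 (adjusted p = 0.68). Limma on log2(FPKM + 0.5) called neither rise (adjusted p = 0.053 over Silica and 0.13 over Control). The call against Control was also lost without Control 1 (0.073) or Silica + ATL-III 1 (0.057).

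**Figure D3:**
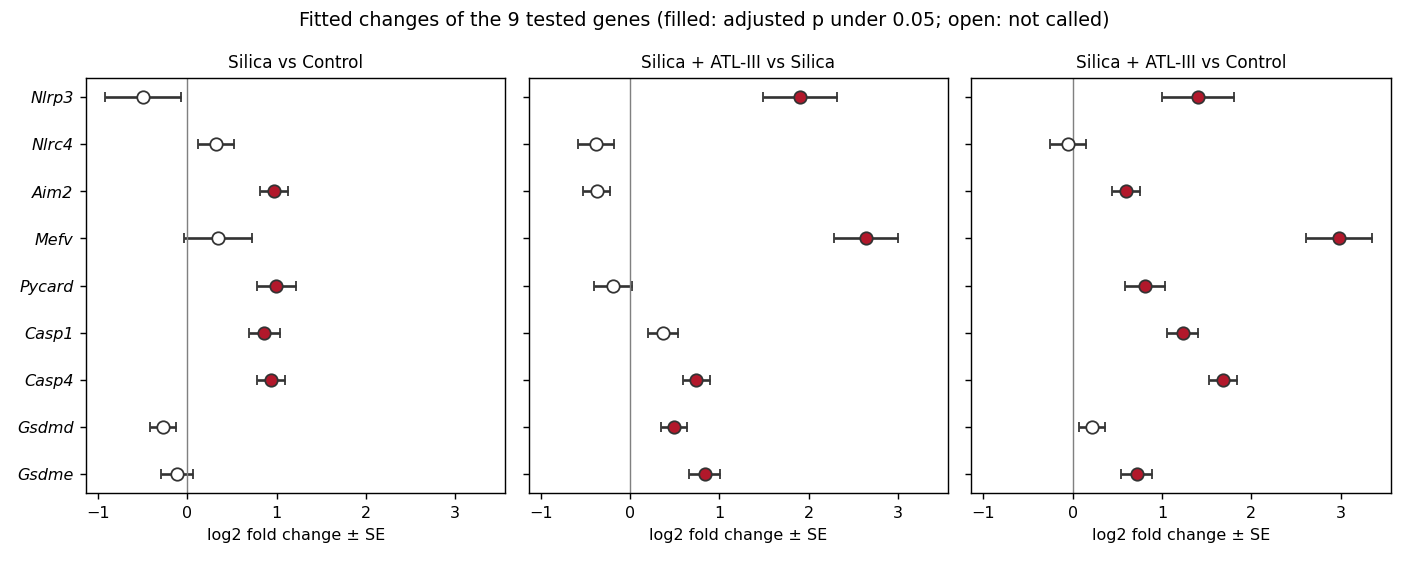
Log2 fold changes ± SE from edgeR (horizontal axes) of the 9 tested genes in the 3 comparisons, filled where the adjusted p was under 0.05 and open where it was not. Filled are Aim2, Pycard, Casp1 and Casp4 in Silica against Control (4 of 9), Nlrp3, Mefv, Casp4, Gsdmd and Gsdme in Silica + ATL-III against Silica (5 of 9), and all but Gsdmd and Nlrc4 in Silica + ATL-III against Control (7 of 9).

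Silica against Control asks how the lungs differed after 28 days with the dust. The libraries did not overlap for the 4 called genes, all higher in Silica, where 14.4% of all genes tested were higher without overlap. Gsdmd was lower without overlap, as were 28.9% of all genes. The median log2 fold change of the 9 genes was 0.34, against -0.01 over all genes.

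Silica + ATL-III against Silica asks how the lungs differed when the compound was given on top of silica. Higher without overlap were 4 genes (Nlrp3, Mefv, Casp4 and Gsdme), as were 15.5% of all genes, and lower without overlap was Nlrc4, as were 19.6% of all genes. The median of the 9 genes was 0.49, against -0.00034 over all genes. It includes Nlrp3 and Gsdme, which passed the filter only through Silica + ATL-III, and leaves out Nlrp1b. The limma fits called 3 of the 9 genes, without Gsdmd and Gsdme.

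Silica + ATL-III against Control asks how far the lungs given both stood from saline. All 7 called genes were higher without overlap, where 12% of all genes were higher and 30.6% lower without overlap. The median was 0.81, against -0.0099 over all genes, with the same limit from the filter. Without Control 1 the number of the 9 genes called was 3, without Control 3 or Silica + ATL-III 3 it was 4, and 3 of the 7 (Mefv, Casp1 and Casp4) kept their call whichever library was left out. Among all genes tested, 57.6% of calls were higher in Silica + ATL-III than in Control with TMM scaling and 34.6% with library totals alone, which moved the median of all genes to -0.13. In Silica against Control those shares were 53.8% and 33.0%, with a median of -0.11, and the members called under library totals alone were 6 against Control for Silica + ATL-III and 4 for Silica.

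Over the 9 libraries the 10 genes formed 45 pairs, whose likeness is described by Pearson's r of log2(FPKM + 0.5) with no test, since the libraries share their groups. Casp1 and Casp4 were the most alike (r = 0.96), then Nlrp3 and Mefv (0.91), Mefv and Gsdme (0.88), Pycard and Casp1 (0.85), Mefv and Casp4 (0.84) and Nlrp3 and Gsdme (0.81), the 6 pairs above 0.8. Aim2 and Pycard had an r of 0.79. Below 0 were 18 pairs, the lowest being Nlrp1b and Casp4 (-0.70). Aim2 and Nlrp3, both sensors that use ASC, had an r of -0.05.

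**Figure D4:**
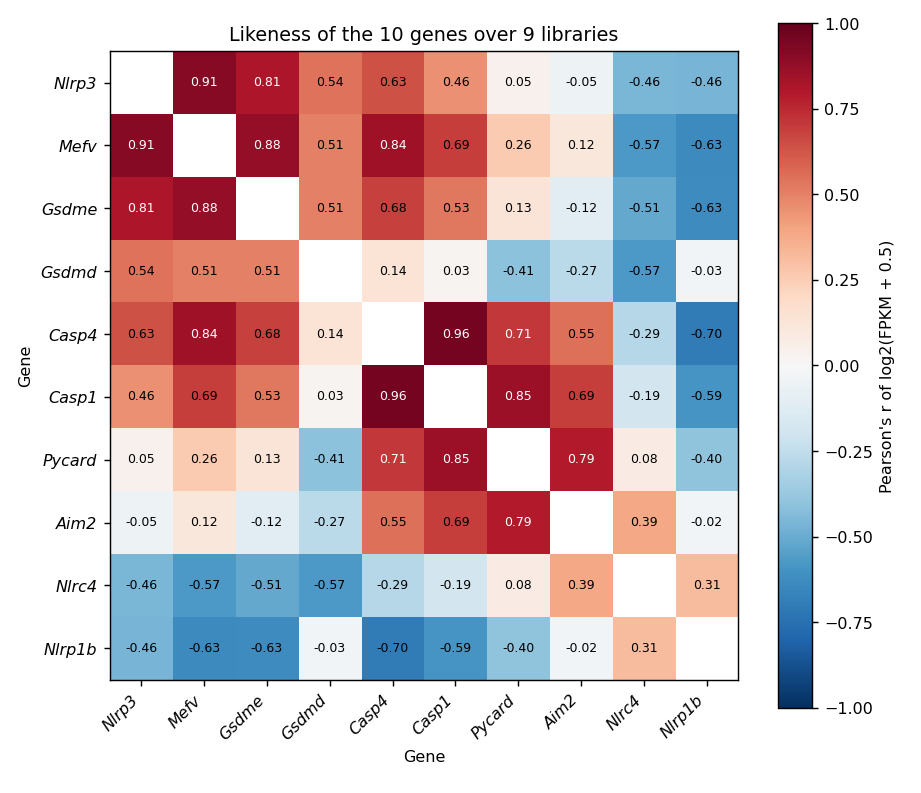
Pearson's r of log2(FPKM + 0.5) over 9 libraries for each pair of the 10 genes (colour, from -1 in blue to 1 in red, with the value written in each cell). Nlrp3, Mefv and Gsdme sit together in one corner with r of 0.81 to 0.91, and Casp4, Casp1, Pycard and Aim2 in the middle with r of 0.55 to 0.96.

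Among 12136 genes with a mean of at least 2 FPKM, the 3 most like each of 4 members were also listed. For Nlrp3 they were 2310001H17Rik, Csf3r and Cyp4f18 (r = 0.98 each). Csf3r, the receptor for granulocyte colony-stimulating factor and a neutrophil marker, stood at 140, 161 and 179 FPKM in Silica + ATL-III, 11.1, 31.1 and 10.1 FPKM in Silica, and 13.4, 69.0 and 13.6 FPKM in Control, high in the same Control library as Nlrp3. For Aim2 they were Vnn3, Nabp1 and Cxcl5 (0.96 each), and Cxcl5, an epithelial chemokine that draws neutrophils, stood at 1.09, 0.48 and 2.08 FPKM in Silica + ATL-III, 4.07, 7.18 and 3.47 FPKM in Silica, and 0.16, 0.87 and 0.36 FPKM in Control. For Casp1 they were Asnsd1 (0.99), Arpc1b and 2210406H18Rik (0.98 each), and for Gsdmd Stk38 (0.99), Tmem100 and Miip (0.96 each).

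The pathway's other genes were followed in a list of 52, of which 51 were in the table and 40 were tested. In Silica + ATL-III against Silica 8 were called higher and 2 lower, in Silica + ATL-III against Control 12 higher, and in Silica against Control 7 higher and 1 lower. Over all genes tested, 21.2%, 15.9% and 16.9% were called in these comparisons. The 10 of 40 in Silica + ATL-III against Silica and the 8 of 40 in Silica against Control thus lie near the share over all genes. The split in Silica against Control turned on the scaling, with 4 higher and 4 lower under library totals alone. With limma on log2(FPKM + 0.5) it was 3 higher and 3 lower. Without the expression filter, where 3780 of the 33325 genes tested were called, 15 of the list were called in Silica against Control. That fit has the limit given below for Il1b, so the 15 are not taken as a stronger result than the 8. The median log2 fold changes of the list were 0.12, 0.25 and 0.10 in that order. With a library left out, the number called was 6 to 13, 7 to 11 and 2 to 11, lowest without Silica 3 or Silica + ATL-III 2 (6 each), without Control 2 (7), and without Control 3 (2), Control 1 or Silica 1 (3 each) or Silica 3 (4). Among the 11 that were not tested were most other gasdermins, and Gsdma, Gsdmc and Gsdmc2 had no count in any library.

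Of the substrates of caspase-1, Il1b stood at 96.7, 117 and 104 FPKM in Silica + ATL-III, 29.9, 55.9 and 19.6 FPKM in Silica, and 10.7, 86.1 and 9.29 FPKM in Control. The Silica + ATL-III libraries lay above all others, but Control 2 stood near them and far from the other Control libraries. In neutrophil markers Control 2 also stood above the other Control libraries, but far below Silica + ATL-III (3906 FPKM against 30220.4 FPKM or more). With all libraries and the expression filter edgeR did not call Il1b: Silica + ATL-III differed from Silica by 1.62 ± 0.68 (adjusted p = 0.11) and from Control by 1.71 ± 0.68 (adjusted p = 0.11), and Silica from Control by 0.09 ± 0.67 (adjusted p = 0.94). Without the filter the fold changes in Silica + ATL-III were nearly the same but called, at 1.63 ± 0.15 over Silica (adjusted p = 3.2e-23) and 1.73 ± 0.15 over Control (adjusted p = 6.5e-26). The standard error of that fit is small beside the spread of the libraries (a CV of 124% in Control and 53.3% in Silica). Its p-values therefore do not describe that spread and are not taken as calls here. Without Control 2 the Il1b changes against Control were 3.52 in Silica + ATL-III (adjusted p = 0.00011) and 1.90 in Silica (adjusted p = 0.010), and with only the 6 libraries of Silica + ATL-III and Silica the change was 1.62 (adjusted p = 0.0053).

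Il18, the other classical substrate, stood at 22.5, 19.5 and 21.9 FPKM in Silica + ATL-III, 24.6, 25.9 and 29.1 FPKM in Silica, and 20.7, 20.6 and 17.8 FPKM in Control. It rose after silica by 0.53 ± 0.12 (adjusted p = 0.014), a call lost without Control 3 (0.068) or Silica 3 (0.051), and Silica + ATL-III differed from Silica by -0.30 ± 0.12 (adjusted p = 0.090). Il1a, an alarmin whose maturation does not need caspase-1, stood at 3.36, 2.36 and 3.47 FPKM in Silica + ATL-III, 8.85, 8.20 and 8.26 FPKM in Silica, and 1.67, 1.58 and 2.50 FPKM in Control. It rose by 2.24 ± 0.21 after silica (adjusted p = 0.00015) and fell by 1.44 ± 0.20 in Silica + ATL-III against Silica (adjusted p = 0.00077). Its rise in Silica + ATL-III over Control (0.80 ± 0.22, adjusted p = 0.029) was lost in 4 of the 6 fits without 1 library, up to an adjusted p of 0.11.

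Among 10 tested sensors and relatives, 4 were called higher in Silica + ATL-III against Silica, 5 in Silica + ATL-III against Control and 3 in Silica against Control, where 11.2%, 9.14% and 9.11% of all genes were called higher. Nlrp12 and Nod2, called higher in both comparisons of Silica + ATL-III, passed the expression filter only through that group. Nlrp12, a relative of Nlrp3 found in myeloid cells, stood at 5.23, 5.40 and 3.96 FPKM in Silica + ATL-III, 0.29, 0.84 and 0.15 FPKM in Silica, and 0.31, 1.40 and 0.17 FPKM in Control, and rose by 3.55 ± 0.64 over Silica (adjusted p = 0.0030). Nlrx1, a mitochondrial member of the family, rose by 1.27 ± 0.22 over Silica (adjusted p = 0.0023) and by 1.67 ± 0.22 over Control (adjusted p = 0.00045) with ATL-III. Naip2, which recognises rod proteins of bacterial secretion systems and passes the signal to NLRC4, rose by 1.29 ± 0.16 after silica (adjusted p = 0.00066), with 5.02, 4.19 and 5.03 FPKM in Silica + ATL-III, 5.70, 4.23 and 6.12 FPKM in Silica, and 2.32, 2.31 and 2.39 FPKM in Control. Ifi204, an interferon-inducible gene of the family of Aim2, rose by 2.00 ± 0.25 in Silica + ATL-III over Control (adjusted p = 0.00031) and by 1.15 ± 0.24 over Silica (adjusted p = 0.0065). Its rise after silica (0.85 ± 0.25, adjusted p = 0.040) was lost in each of the 6 fits without 1 library, up to an adjusted p of 0.15. The Naip and Ifi200 families hold near copies whose reads the counting may have split.

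Among 14 tested regulators, 3 were called higher and 1 lower in Silica + ATL-III against Silica, 1 higher in Silica + ATL-III against Control and 1 lower in Silica against Control, where 21.2%, 15.9% and 16.9% of all genes were called in either direction. Pstpip1, whose protein binds pyrin, rose by 1.27 ± 0.22 over Silica (adjusted p = 0.0026) and by 1.76 ± 0.23 over Control (adjusted p = 0.00037) with ATL-III. It stood at 9.20, 10.7 and 12.8 FPKM in Silica + ATL-III, 4.64, 4.66 and 4.48 FPKM in Silica, and 2.69, 5.17 and 2.63 FPKM in Control, again with Control 2 above the other Control libraries. Nek7, the kinase that NLRP3 needs to assemble, rose by 0.40 ± 0.12 over Silica (adjusted p = 0.028), lost without Silica 3 (0.11), Silica + ATL-III 1 (0.078) or Silica + ATL-III 2 (0.10). Dpp9, which restrains NLRP1, fell by 0.41 ± 0.12 after silica (adjusted p = 0.036) and rose by 0.36 ± 0.12 in Silica + ATL-III over Silica (adjusted p = 0.047), each call lost in 4 of 6 fits without 1 library, up to adjusted p of 0.14 and 0.16. Irf8, a myeloid transcription factor, fell by 0.51 ± 0.15 in Silica + ATL-III against Silica (adjusted p = 0.033), also lost in 4 of 6 such fits, up to 0.10.

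**Figure D5:**
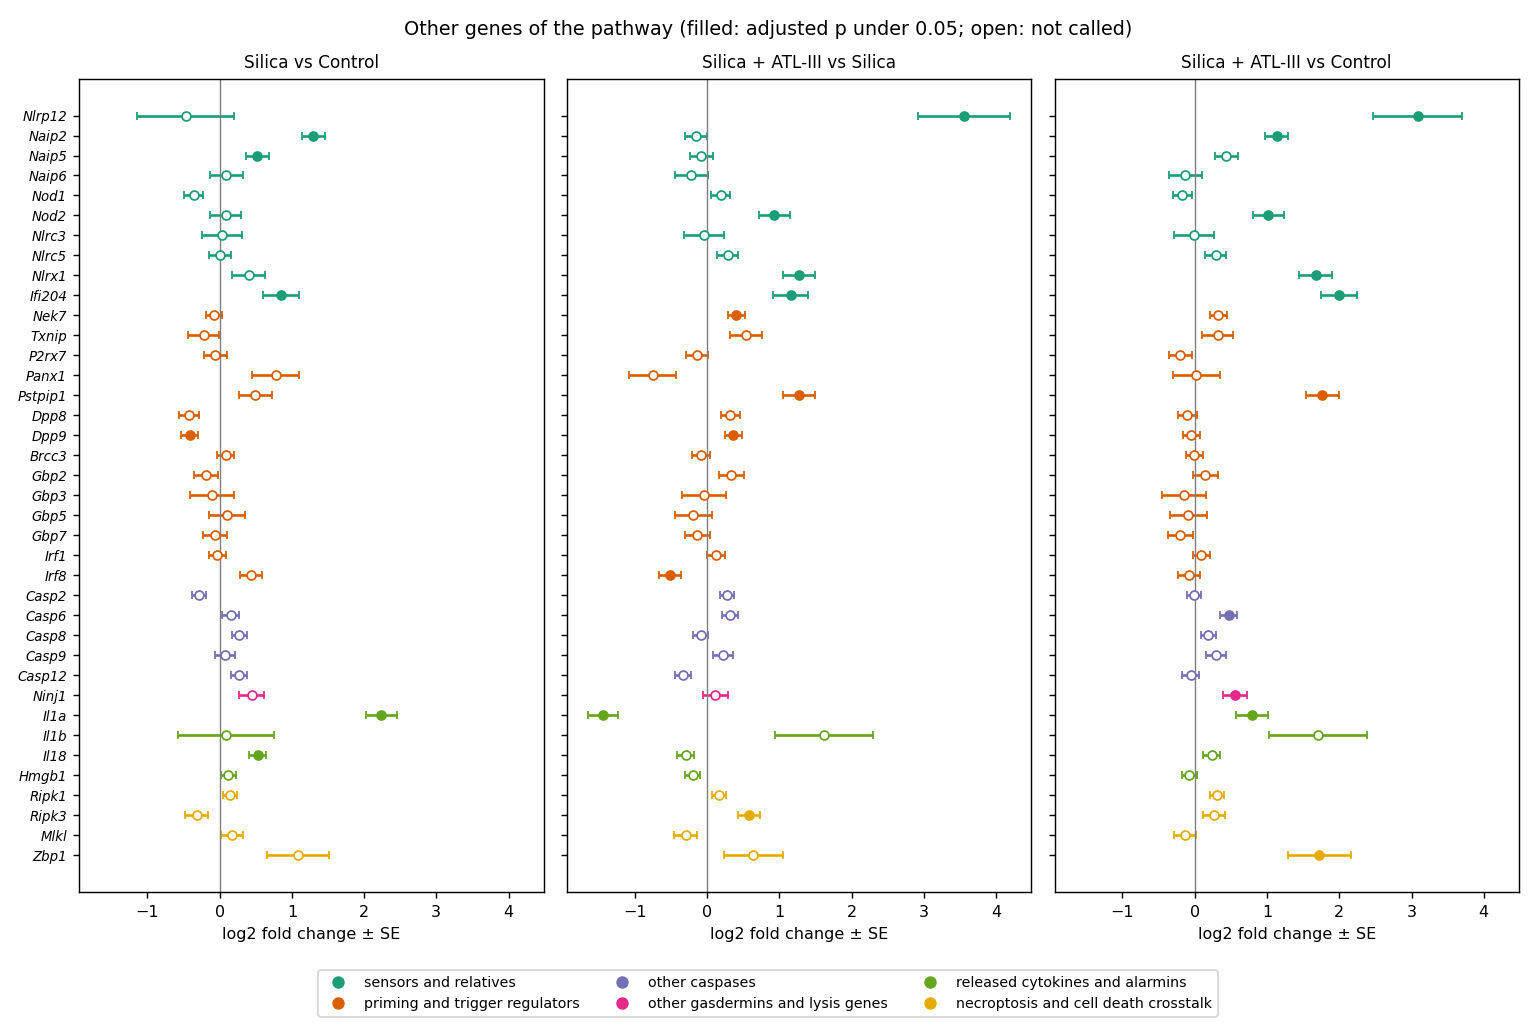
Log2 fold changes ± SE from edgeR (horizontal axes) of 38 other genes of the pathway in the 3 comparisons, coloured by role, filled where called and open where not. Il1a lies at 2.24 in Silica against Control and at -1.44 in Silica + ATL-III against Silica, where Nlrp12 lies at 3.55.

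Among the other caspases, Casp6, an apoptotic caspase, rose by 0.47 ± 0.12 in Silica + ATL-III over Control (adjusted p = 0.017), a call lost without Control 2 (0.076) and by limma on log2(FPKM + 0.5) (0.055). Its log2 fold change was 0.32 ± 0.12 in Silica + ATL-III over Silica (adjusted p = 0.070) and 0.15 ± 0.12 in Silica over Control (adjusted p = 0.37), neither of them called. In Silica + ATL-III against Silica edgeR called 0 of the 7 other caspases, where 21.2% of all genes were called. At an unadjusted p under 0.05 by edgeR were 3 of the 7. Casp1, at an unadjusted p of 0.053 by edgeR there, ranked at 36.0% of all genes by p, so at most that share was under 0.05. DESeq2 and limma on log2(FPKM + 0.5) each called 1 of the 7, lower, and 3783 and 2952 of the 15459 genes. Ninj1, which ruptures the plasma membrane after pore formation, differed by 0.56 ± 0.17 between Silica + ATL-III and Control (adjusted p = 0.047), a call lost in each of the 6 fits without 1 library, up to an adjusted p of 0.16. Of the 4 necroptosis genes, Ripk3, the kinase that starts necroptosis, rose by 0.58 ± 0.16 in Silica + ATL-III over Silica (adjusted p = 0.022), a call lost in 4 of 6 fits without 1 library, up to 0.080. Zbp1, a sensor of Z-form nucleic acids, stood at 10.4, 2.25 and 4.96 FPKM in Silica + ATL-III, 4.18, 4.50 and 2.77 FPKM in Silica, and 2.33, 1.92 and 1.52 FPKM in Control. It rose by 1.72 ± 0.43 in Silica + ATL-III over Control (adjusted p = 0.018), though the libraries of these groups overlapped. That call was lost without Control 2 (0.057), Control 3 (0.074) or Silica + ATL-III 1 (0.065).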

How the data were processed

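Lung RNA of 9 libraries in 3 groups was compared. The authors deposited whole-number counts for each gene, not normalized, beside FPKM values, per the file headers. FPKM computed again from counts, exonic lengths and column totals equalled the deposited FPKM within 0.006 in 100% of values. The submitters' processing notes list HISAT2 2.0.1, HTSeq 0.6.1, cutadapt 1.9.1 and the build mm10 but no roles. Start positions in the table are of unknown build, so those printed come from GENCODE M21 (GRCm38), matched by gene identifier.

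The members and lists were chosen with earlier results of these data known. A single edgeR quasi-likelihood fit (edgeR 4.0.16, R 4.3.3) of 3 group means, with TMM scaling and 6 residual degrees of freedom, covered the 15459 genes that had 3 or more libraries at 1 FPKM or above. The standard error was taken as the log2 fold change over the square root of F, and p-values were adjusted over all genes tested. Named are the members and, of the other genes, Il1b, Il18, Nek7, Ninj1 and the 3 smallest adjusted p in each comparison and direction. Casp6, Ripk3 and Zbp1 were named after their values were seen, and some genes of the lists are not reported here. Irgb10 was not matched by symbol. Alternatives were DESeq2 1.42.0, edgeR with the size factors of DESeq2 or with library totals alone, limma 3.58.1 on log2(FPKM + 0.5) or log2(FPKM + 0.1), other filters, a replicate block, only the 6 libraries compared, and leaving out each library. No library was a copy of another in its group, since the counts of any 2 libraries in a group differed beyond sampling noise. The lowest chi-square was 5.99 for each degree of freedom, and pairs across groups were not checked. No batch or date is in the labels. The scripts were tested on simulated data.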

Additional observations from a re-analysis of the deposited data

How the results depend on the processing

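The labels number the replicates alike in each group. Correlations of same-numbered deviations were 0.09 to 0.12 for Silica with Control, where those of different numbers were -0.14 to 0.053. For Silica + ATL-III with Silica they were -0.13 to -0.01 (different numbers -0.046 to 0.10). For Silica + ATL-III with Control they were -0.10 to -0.06 (different numbers -0.064 to 0.13). With 3 libraries per group these values cannot decide whether the numbers pair the libraries. With a replicate block the genes called over the whole table numbered 2120 in Silica against Control, 2822 in Silica + ATL-III against Silica and 2109 in Silica + ATL-III against Control, and 4, 5 and 7 of the 9 genes were still called. The block lost the calls of Dpp9 in Silica against Control (adjusted p = 0.062) and in Silica + ATL-III against Silica (0.083), of Ifi204 in Silica against Control (0.059), and of Ninj1 in Silica + ATL-III against Control (0.062). It gave a call to Il1b in Silica + ATL-III, with 1.85 over Silica (0.024) and 2.40 over Control (0.011). Limma on log2(FPKM + 0.5) and on log2(FPKM + 0.1) called 3 and 3 of the 9 genes in Silica + ATL-III against Silica, and 4 and 4 against Control; the cause was not tested. Of the pathway's other genes the block called 5 in Silica against Control, in place of 8, and limma called 6 in Silica + ATL-III against Control, in place of 12.

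Leaving out 1 library, the number of the 9 genes called was 3 to 4 in Silica against Control, 4 to 6 in Silica + ATL-III against Silica and 3 to 6 in Silica + ATL-III against Control. Over the whole table it was 862 to 3944, 1924 to 3877 and 1474 to 2319 genes, against 2615, 3279 and 2451 with all libraries, lowest in Silica against Control without Control 3 or Silica 1 (865) and highest without Silica 2. Of 1080 recomputed values of single genes, 944 kept direction and call, 96 lost a call (60 of them with a library left out), 23 gained one and 17 changed sign, none of the last among called genes. Sign changes with a library left out fell within the ranges -0.24 to 0.0042 for Gsdme, -0.38 to 1.90 for Il1b, -0.19 to 0.73 for Mefv, -0.11 to 0.0029 for Nek7, -1.38 to 0.90 for Nlrp12 and -0.80 to 0.32 for Nlrp3 in Silica against Control. They were -0.0018 to 0.33 for Ninj1, -0.43 to 0.066 for Pycard and -0.057 to 1.03 for Zbp1 in Silica + ATL-III against Silica, and -0.12 to 0.050 for Dpp9, -0.21 to 0.085 for Irf8 and -0.19 to 0.030 for Nlrc4 in Silica + ATL-III against Control. With library totals alone, Il1b was at -0.010 in Silica against Control. Without the expression filter Zbp1 gained calls in Silica + ATL-III against Silica and in Silica against Control, and Irf8, Ninj1 and Pstpip1 in Silica against Control, while Dpp9 lost its call in Silica + ATL-III against Silica (0.064). The standard error of Zbp1 over Silica was 0.18 there in place of 0.41, so its gained calls carry the same limit as those of Il1b without the filter. Depth was low for Nlrp1b (26 to 66 counts in each library), and the lowest library had 37 counts for Mefv, 45 for Nlrp3 and 61 for Nlrc4.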
